A study of Mus musculus with 8 samples.

Results

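Cadherins are calcium-dependent adhesion proteins that hold neighbouring cells together at adherens junctions and are tied to the actin skeleton through catenins. In the early urogenital system, loose intermediate mesoderm is the source of an epithelial tube, the nephric duct, whose outgrowth, the ureteric bud, later forms the collecting ducts. E-cadherin is known as the cadherin of epithelia and N-cadherin as that of many mesodermal and neural cells. The 8 cadherin genes described here were Cdh1 (E-cadherin), Cdh2 (N-cadherin), Cdh3 (P-cadherin), Cdh4 (R-cadherin), Cdh6 (K-cadherin), Cdh11 (OB-cadherin), Cdh13 (T-cadherin, which is held in the membrane by a lipid anchor) and Cdh16 (Ksp-cadherin, known for its expression in kidney tubules). They were chosen by name: every non-control probe whose gene name in the scanner files was one of these 8 symbols was taken, which gave 13 probes of the 55663 kept, for 8 of the 34837 names on the array.

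The study measured mouse embryonic cells on 8 one-colour Agilent arrays, 1 array per sorted sample. Ureteric bud precursors of ICR embryos carrying a Hoxb7-GFP transgene, a reporter of the nephric duct, were sorted by flow cytometry. There was 1 array of the undivided E8.75 lineage, 1 each of the rostral and the caudal duct at E9.5 and likewise at E10.5, and 1 of the ureteric bud at E11.5. From E9.5 on, the labels state that these cells were also negative for Flk1, a receptor of endothelial cells, and at E8.75 no such gate is given. Intermediate mesoderm cells of ICR embryos carrying Wt1-GFP, a reporter of the nephron lineage, were sorted at E9.5 (2 arrays, rostral and caudal), with no Flk1 gate stated. All samples were untreated, and 10 ng of total RNA per sample was amplified before labelling with Cy3. The labels do not say how many embryos went into a sample or whether the arrays came from separate animals. No 2 arrays repeat the same kind of sample, so that the p-values below measure how far the rostral and caudal difference varied between groups, a spread that may be partly technical.

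A level is the log2 of an array's processed signal minus the log2 of its 75th percentile, so that 0 is the level of the 75th percentile probe and 1 unit is a doubling. A spot counts as measured where the scanner software marked it well above background. Between 60.6% and 69.2% of probes were so marked on an array, and the dimmest such probes lay at -4.88 to -3.95. The arrays lay in 2 rows of 4 on 1 slide: E8.75, both E9.5 duct samples and rostral E10.5 in row 1, and caudal E10.5, E11.5 and both Wt1-GFP samples in row 2. The summed signal of the 10 duct marker genes was 85.8 to 134 times the 75th percentile on the 6 Hoxb7-GFP arrays and 7.29 and 13 on the Wt1-GFP arrays. Single duct markers differed more than this sum. At E8.75 Wnt9b was not well above background (-4.37) and Tfcp2l1 read -3.76. In the rostral and caudal E9.5 duct Wnt9b read 1.4 and 2.1, and Tfcp2l1 1.19 and 0.49. From E8.75 to E9.5, 5 of the 10 duct markers were higher and 5 lower. In bulk samples of sorted cells, fewer cells of a type and less RNA per cell cannot be told apart.

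The probes are 60 bases long and are placed here on mouse build mm9 as the scanner files place them. They are shown for the genes whose levels differed most over the arrays and for those whose probes differed among themselves, since each value below belongs to 1 such stretch of a transcript and not to the whole gene. For Cdh6, Cdh4 and Cdh13 the whole probe is given, and for Cdh1, Cdh16 and Cdh11 its first 30 bases.
Cdh6 at chr15:12963981-12964040, minus strand: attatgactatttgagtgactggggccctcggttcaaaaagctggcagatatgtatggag
Cdh4 at chr2:179581965-179582024, plus strand: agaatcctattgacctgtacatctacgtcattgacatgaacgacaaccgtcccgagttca
Cdh13 at chr8:121837969-121838028, plus strand: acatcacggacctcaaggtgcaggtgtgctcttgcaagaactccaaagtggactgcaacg
Cdh1 at chr8:109193812-109193871, plus strand: acattctaacgggaaaaaggagacaagacc
Cdh16 at chr8:107138101-107138160, minus strand: agacattatcacaggcatgtccccaaagcc
Cdh11 at chr8:105157473-105157532, minus strand: tattttagtatacatacaaatatcagtatt
Of the 8 genes, 5 lie on chromosome 8 (Cdh1, Cdh3, Cdh11, Cdh13 and Cdh16), and in the RefSeq annotation of GRCm38.p6 Cdh3 is the direct upstream neighbour of Cdh1. The exon and coding status of the probes was not assigned, because no annotation of mm9 was used here.

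All 13 probes were well above background on at least 1 array and were tested, and 7 of them were so on all 8 arrays. Their levels varied widely: 12 of 13 probes ranged over at least 4-fold and 4 over at least 16-fold across the 8 arrays, against 40.4% and 10% of all tested probes. The median range was 3.7 on the log2 scale for the cadherin probes and 1.64 for all tested probes. Under a background correction that lifts dim signals (normexp with an offset of 50), 7 of 13 ranged over at least 4-fold. The share of all tested probes under that correction was not counted, so this count has no background to be set against. With every value that was not well above background raised to the dimmest such probe of its array (below, the floor), 12 and 4 of 13 passed these marks, against 26% and 4.1% of all tested probes, and the medians were 2.63 and 1.33. Cdh16, measured on every array, ranged over 7.56. Its lowest level, -3.88 in the rostral Wt1-GFP cells, lay close to the dimmest probe well above background there (-3.96). With the floor, the ranges of Cdh11 (A_52_P437795), Cdh6 and Cdh1 were at least 5.07, 5.04 and 4.17.

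**Figure D1:**
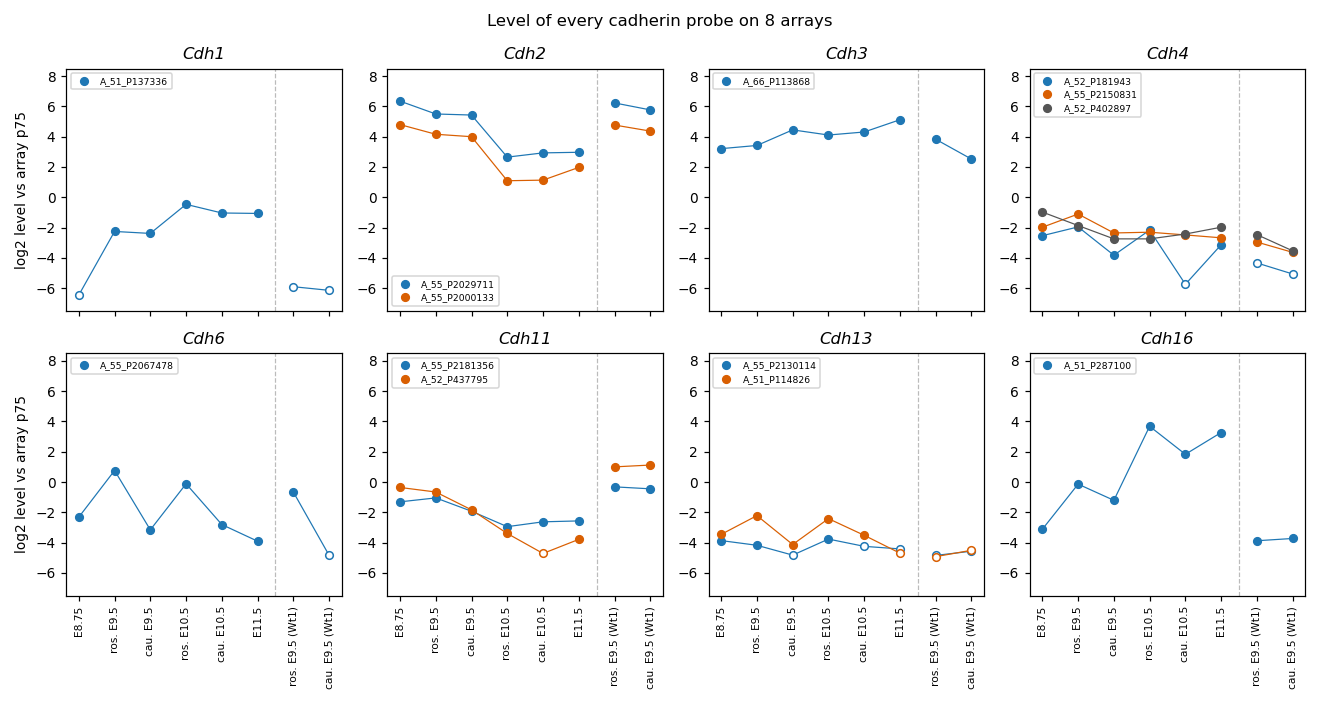
Level of every cadherin probe (log2 signal relative to the array's 75th percentile, y axis) on the 8 arrays (x axis, the 6 Hoxb7-GFP arrays left of the dashed line, the 2 Wt1-GFP arrays right of it). Each colour is 1 probe, a filled point was well above background and an open point was not. Cdh1 and Cdh16 are highest on the E10.5 and E11.5 duct arrays, where Cdh2 and Cdh11 are lower than on the earlier duct arrays.

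Cdh1, the adhesion molecule of epithelial junctions, was measured in the duct lineage from E9.5 on and was not well above background on the other 3 arrays. Its level was -2.26 in the rostral and -2.39 in the caudal duct at E9.5, -0.47 and -1.04 in the rostral and caudal duct at E10.5, and -1.07 in the bud at E11.5. At E8.75 the probe read -6.46, and in the rostral and caudal Wt1-GFP cells -5.91 and -6.15, all not well above background. That the 5 measured arrays lay above the other 3 follows almost from the mark itself and is no separate result. This probe was printed 10 times on each array, more often than any other cadherin probe.

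The E9.5 duct arrays enter the comparison with the Wt1-GFP cells and both neighbouring stage steps, so those values are not independent of each other. At E9.5 the duct samples exceeded the Wt1-GFP samples in Cdh1 by 3.7 on the log2 scale (SE 0.25, limma adjusted p = 0.21). Since the Wt1-GFP value is only a bound, the difference is given as at least 3.48-fold. Within the duct lineage the E9.5 mean lay 4.13 above E8.75 (SE 0.31, limma adjusted p = 0.23), or at least 5.01-fold. A bound sets the duct mean against the dimmest probe well above background on each dim array. Some probes not well above background read higher than that level, so that such a bound is a convention and no strict limit. The step from E9.5 to E10.5 was 1.56 (SE 0.25, 2.96-fold, limma adjusted p = 0.6), and 0.96 with the normexp correction. The step to E11.5 was -0.31 (SE 0.31, limma adjusted p = 0.71), a size equal to its own error.

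The difference from the Wt1-GFP cells was the 34th smallest of 45582 by p. It did not pass the threshold of adjusted p 0.05, which 0% of probes passed with limma in any of the 6 comparisons. At an unadjusted p of 0.05, 11.7% of all probes passed in the reporter comparison (6.1% higher in the duct and 5.63% lower). Of the 13 cadherin probes 6 did: Cdh1, Cdh16, Cdh6 and 1 probe of Cdh4 higher in the duct, and both probes of Cdh11 lower. From E8.75 to E9.5 it was 2 of 13, Cdh1 and Cdh16, both higher, against 14.5% of all probes (7.36% higher). With a prior variance that follows intensity, 789 probes passed, among them Cdh1 (limma adjusted p = 0.03) and Cdh16 (limma adjusted p = 0.047). With a block for slide row added to that setting, 0 probes passed, and the adjusted p-values of Cdh1 and Cdh16 were 0.7 and 0.72. The normexp correction gave a Cdh1 difference of 0.76 from the Wt1-GFP cells and of 0.91 from E8.75.

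The E9.5 duct arrays lay in slide row 1 and the Wt1-GFP arrays in row 2, so that slide row and reporter are told apart only through the E10.5 pair, which spans both rows. Within row 2, the caudal E10.5 duct exceeded the caudal Wt1-GFP cells at least 9.44-fold in Cdh1 and 47.3-fold in Cdh16, and lay below them at least 33.6-fold in Cdh11 (A_52_P437795), samples that also differ in stage. The step from E8.75 to E9.5 lies within row 1.

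Cdh16, the cadherin of kidney tubules, spanned the widest range of the 13 probes. It read -3.12 at E8.75, -0.14 and -1.21 in the rostral and caudal duct at E9.5, 3.68 and 1.83 at E10.5, and 3.27 at E11.5, against -3.88 and -3.73 in the rostral and caudal Wt1-GFP cells. It was well above background on all 8 arrays, although the Wt1-GFP values were not far above the dimmest such probes of their arrays (-3.96 and -4.28). The E8.75 value lay close to the Wt1-GFP values, and the 3 arrays of E10.5 and E11.5 lay above every earlier duct array. Such a separation upward held for 2 of the 13 cadherin probes (Cdh1 and Cdh16) and for 6.12% of all tested probes.

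The E9.5 duct exceeded the Wt1-GFP cells in Cdh16 by 3.13 (SE 0.57, limma adjusted p = 0.28). It exceeded the E8.75 sample by 2.45 (SE 0.69, 5.45-fold, limma adjusted p = 0.3). The step from E9.5 to E10.5 was the largest of any cadherin in that comparison, at 3.43 (SE 0.57, 10.8-fold, limma adjusted p = 0.6). Between the rostral samples of these stages, which share a slide row, it was 14.1-fold. A block for slide row gave a reporter difference of 1.74, and the normexp correction gave 1.5, and 1.37 for the difference from E8.75. The step to E11.5 was 0.51 (SE 0.69, limma adjusted p = 0.79) and turned to -0.18 without the caudal E10.5 array.

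At E8.75, where Cdh1 and Cdh16 were low, the 8 endothelial marker genes summed to 44.1 times the 75th percentile, against 4.2 to 6.31 on the other 7 arrays. All 8 of these markers were well above background at E8.75. The 6 endoderm markers summed to 5.53 there and to 0.15 to 1.13 on the other arrays. Their part in the differences from E8.75 was not tested. The 6 surface ectoderm markers, from a tissue that also carries E-cadherin, summed to 69.5 to 90.9 on the 8 arrays. Their members differed more than the sum: 5 of 6 were higher in the E9.5 duct than in the Wt1-GFP cells, with a median difference of 1.46 against -0.04 over all tested probes. At an unadjusted p under 0.05, 2 of 6 were higher, against 6.1% of all probes. On the rostral and caudal Wt1-GFP arrays 3 of 6 were well above background, near the 61.5% and 60.6% of all probes. On the duct arrays 5 or 6 of these markers were so, against 61.5% to 69.2% of all probes. Their part in the Cdh1 difference was not tested.

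Cdh2, the cadherin of mesodermal and neural cells, ran the other way over the stages. Its first probe (A_55_P2029711) read 6.35 at E8.75, 5.5 and 5.43 in the rostral and caudal duct at E9.5, 2.65 and 2.93 at E10.5, 2.97 at E11.5, and 6.23 and 5.77 in the rostral and caudal Wt1-GFP cells. Its other probe (A_55_P2000133) read 4.8, then 4.16 and 4, then 1.09 and 1.13, then 1.97, and 4.77 and 4.37 in the same order. Both probes thus stayed well above background on all 8 arrays. The 3 arrays of E10.5 and E11.5 lay below the 3 earlier duct arrays, as for 5.47% of all tested probes, and below both Wt1-GFP arrays. The probes followed each other at r = 0.99 over the 8 arrays.

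The step from E9.5 to E10.5 in the duct was -2.97 (SE 0.25, 7.82-fold lower, limma adjusted p = 0.6) for A_55_P2000133 and -2.68 (SE 0.29, 6.41-fold lower, limma adjusted p = 0.6) for A_55_P2029711. By p these were the 14th and the 62nd of 45582 probes. In this comparison 7.33% of all probes had an unadjusted p under 0.05 (3.85% higher at E10.5 and 3.48% lower), as did 6 of the 13 cadherin probes: both of Cdh2 and both of Cdh11 lower, and Cdh1 and Cdh16 higher. The rostral samples of the 2 stages, in 1 slide row, differed by 7.25-fold and 8.39-fold. The background correction and the other scalings moved these steps little, to between -3.05 and -2.65.

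The Cdh2 differences from the Wt1-GFP cells at E9.5 were small, at -0.49 (SE 0.25) and -0.53 (SE 0.29), with limma adjusted p = 0.5 and 0.52. The second of these read 0.02 with the slide row as a block. From E8.75 to E9.5 the probes differed by -0.73 (SE 0.31) and -0.88 (SE 0.36), with limma adjusted p = 0.39 and 0.38. From E10.5 to E11.5 they gave 0.86 (SE 0.31) and 0.18 (SE 0.36), so that neither probe was lower at E11.5 than at E10.5.

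Cdh11, a cadherin of mesenchyme, was highest in the Wt1-GFP cells. The probe A_52_P437795 read 1 and 1.12 in the rostral and caudal Wt1-GFP cells, -0.36 in the E8.75 duct lineage, -0.66 and -1.84 at E9.5, -3.4 and -4.72 at E10.5 (the last not well above background), and -3.79 at E11.5. Both Wt1-GFP arrays lay above all 6 duct arrays, and the same held for the second Cdh11 probe, A_55_P2181356, of which only 33 bases are placed on the genome. That order was found in 2 of 13 cadherin probes and in 8.23% of all tested probes. The second probe spanned -2.95 to -0.32 and followed the first at r = 0.96.

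The E9.5 duct lay below the Wt1-GFP cells by 2.31 for A_52_P437795 (log2 difference -2.31, SE 0.47, 4.95-fold, limma adjusted p = 0.31). For A_55_P2181356 the difference was -1.11 (SE 0.38, 2.16-fold, limma adjusted p = 0.42). From E9.5 to E10.5 the probes gave -2.81 (SE 0.47, limma adjusted p = 0.6) and -1.3 (SE 0.38, limma adjusted p = 0.66). The step of A_52_P437795 was -2.43 with the floor, since 1 of the E10.5 values was not well above background, and -1.13 with the normexp correction, and a block for slide row gave -0.29 for the reporter difference of A_55_P2181356. All 3 late duct arrays lay below the 3 early ones for both probes, as for both Cdh2 probes. That makes 4 of 13 against 5.47% of all probes. These probes come from Cdh2 and Cdh11 alone, and those of each gene followed each other closely (r = 0.99 and 0.96), so they are not separate results. The 7 stromal marker genes, which mark mesenchyme, summed to 47.9 and 33.6 in the rostral and caudal Wt1-GFP samples. In the duct lineage they summed to 2.09 at E8.75, to 5.9 and 3.54 in the rostral and caudal duct at E9.5, and to 0.861 to 1.23 at E10.5 and E11.5. All 7 were well above background on the Wt1-GFP arrays and on the E8.75 and E9.5 duct arrays, against 4 or 5 on the later ones. From E8.75 to E9.5 the Cdh11 probes A_52_P437795 and A_55_P2181356 gave -0.89 (SE 0.57) and -0.19 (SE 0.47), with limma adjusted p = 0.53 and 0.89. In that step all 7 stromal markers were higher at E9.5, 0 of them at an unadjusted p under 0.05, against 7.36% of all probes. Their part in the Cdh11 differences was not tested.

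Cdh3, the P-cadherin gene next to Cdh1, was bright everywhere. It read 3.21 at E8.75, 3.42 and 4.45 in the rostral and caudal duct at E9.5, 4.11 and 4.31 at E10.5, 5.12 at E11.5, and 3.83 and 2.52 in the Wt1-GFP cells. The groups overlapped: the rostral Wt1-GFP level lay between those of the E9.5 duct samples. Its difference from the Wt1-GFP cells was 0.76 (SE 0.65, limma adjusted p = 0.66). The steps of 0.72, 0.28 and 0.91 between stages were each smaller than the gap of 1.03 between the E9.5 duct samples. Unlike its neighbour Cdh1, Cdh3 was therefore well above background on all 8 arrays, and its E8.75 level was not separated from E9.5 beyond the gap between E9.5 samples.

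**Figure D2:**
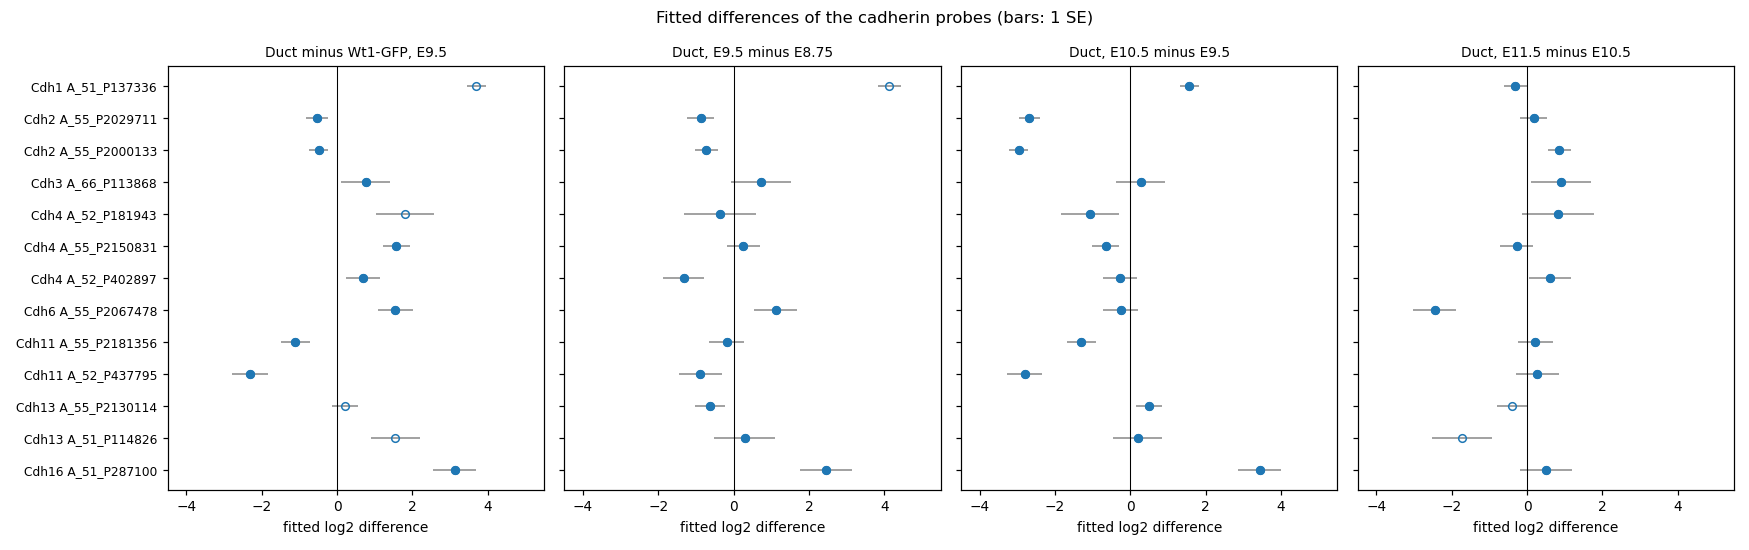
Fitted log2 difference (x axis) of each of the 13 cadherin probes (rows) in the reporter comparison at E9.5 and in the 3 steps between stages of the duct lineage. Points are the limma estimates, open where a group had no array well above background, and bars are 1 SE, and 0 of the 13 passed adjusted p 0.05 in any panel. Cdh1 and Cdh16 lie to the right in the first 3 panels, at 3.7 and 3.13, at 4.13 and 2.45, and at 1.56 and 3.43, and both Cdh2 probes lie far left in the third, at -2.68 and -2.97.

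Cdh6, K-cadherin, known in forming kidney epithelia, was the cadherin that differed most between rostral and caudal samples. Its level was 0.76 in the rostral and -3.16 in the caudal duct at E9.5, and -0.12 and -2.81 in the rostral and caudal duct at E10.5. In the Wt1-GFP cells it was -0.66 in the rostral part and -4.84, not well above background, in the caudal part. The undivided samples read -2.32 at E8.75 and -3.91 at E11.5. The 3 rostral arrays therefore lay above all 5 others, an order whose share among all probes was not counted.

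The pair differences of Cdh6 were 3.92 (15.1-fold) in the E9.5 duct, 2.69 (6.46-fold) in the E10.5 duct and at least 12.3-fold in the Wt1-GFP cells. Fitted over the 3 pairs, rostral exceeded caudal by 3.6 (SE 0.38, limma adjusted p = 0.77), and by 3.41 with the caudal Wt1-GFP value at its floor. By p this was the 33rd of 45582 probes, of which 6.35% had an unadjusted p under 0.05 (3.98% higher in the rostral part), as did 2 of the 13 cadherin probes (Cdh6 and 1 probe of Cdh4, both higher in the rostral part). A rostral excess of at least 4-fold was fitted for 0.772% of all probes. The interaction term, which asks whether the Wt1-GFP pair differed from the duct pairs, was 0.88 (SE 0.79, limma adjusted p = 1), 0.32 with the floor, and turned to -0.45 under the normexp correction. Under that correction the fitted rostral excess was 1.86.

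Summed markers of other tissues also differed between the rostral and caudal parts. The 7 neural markers summed to 139 in the rostral and 24.1 in the caudal E9.5 duct, to 32.2 and 29.4 at E10.5, and to 36 and 20.8 in the Wt1-GFP cells. The 5 measured heart markers summed to 6.79 and 1, to 1.63 and 1.68, and to 3.01 and 0.381 in the same pairs. The 5 measured coelomic markers summed to 2.56 and 0.295, to 0.95 and 0.874, and to 14 and 2.08. In the rostral and caudal E9.5 duct only 2 of these 5 were well above background: Gata4, at 1.23 and -3.67, and Krt19, at -2.93 and -2.8. The sum there thus differed through Gata4 and not through the markers as a set. The 7 stromal markers summed to 5.9 and 3.54, to 1.17 and 0.861, and to 47.9 and 33.6, higher in the rostral part of each pair. The fitted stromal differences were split, with 4 markers higher and 3 lower in the rostral part. All 7 neural markers were higher, as were 4 of 5 heart and 4 of 5 coelomic ones. At an unadjusted p under 0.05, 3 of 7 stromal and 1 of 7 neural markers were higher, against 3.98% of all probes. So were 1 of 5 heart and 1 of 5 coelomic markers. At that p 1 stromal marker was lower, as were 1081 of 45582 probes. The median differences of the stromal, neural, heart and coelomic markers were 1.26, 0.8, 1.26 and 0.85, against 0.02 over all tested probes. The part of these tissues in the Cdh6 differences was not tested.

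Cdh6 in the E9.5 duct exceeded the Wt1-GFP cells by 1.55 (SE 0.47, limma adjusted p = 0.39), a smaller distance than the gap between rostral and caudal samples, and by 1.27 with the floor, 0.62 with the normexp correction and 2.91 with a block for slide row. From E8.75 to E9.5 it gave 1.12 (SE 0.57, limma adjusted p = 0.45). The bud at E11.5 lay 2.45 below the E10.5 mean (log2 difference -2.45, SE 0.57, 5.47-fold, limma adjusted p = 0.33), and 1.2 below it (-1.2) with the normexp correction. In that comparison 12.2% of all probes had an unadjusted p under 0.05 (5.73% lower at E11.5), and of the cadherin probes it was Cdh6 alone. Against the caudal E10.5 array, in the same slide row, the E11.5 level was 2.15-fold lower, a smaller step than that from the mean of both parts.

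Cdh4, R-cadherin, known in neural and kidney development, was dim, and its 3 probes followed each other only at r = 0.54 to 0.7. The 2 probes toward the transcript's end (A_55_P2150831 and A_52_P402897) were well above background on all 8 arrays and spanned -3.64 to -1.11 and -3.54 to -0.98. The probe nearer the start, A_52_P181943, whose sequence is shown above, was not well above background in the caudal E10.5 duct (-5.75) or in the Wt1-GFP cells (-4.34 and -5.07). It read -2.54 at E8.75, -1.96 and -3.83 in the rostral and caudal duct at E9.5, -2.17 in the rostral duct at E10.5 and -3.14 at E11.5. In the caudal E10.5 duct the other 2 probes read -2.49 and -2.43, close to their own rostral levels of -2.31 and -2.75.

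The E9.5 duct exceeded the Wt1-GFP cells by 1.57 (SE 0.36, 2.97-fold, limma adjusted p = 0.33) for A_55_P2150831, whose 6 duct arrays all lay above both Wt1-GFP arrays. That separation held for 2 of 13 cadherin probes, this one and Cdh16, against 5.81% of all probes. For A_52_P181943 the difference was 1.8 (SE 0.77, at least 2.33-fold, limma adjusted p = 0.46) and read -0.47 with the slide row as a block. Its step from E9.5 to E10.5 was -1.06 (SE 0.77, limma adjusted p = 0.83), -0.16 with the floor, and 0.08 without the caudal E10.5 array. Its rostral excess was 2.06 (SE 0.63, limma adjusted p = 0.77), or 1.32 with the floor. Its E9.5 duct pair differed 3.65-fold and its E10.5 pair at least 3.43-fold, and neither Wt1-GFP value was well above background. In the E10.5 pair the other Cdh4 probes gave 0.18 and -0.32. With the normexp correction the reporter difference and the rostral excess of A_52_P181943 were 0.35 and 0.56, and the reporter difference of A_55_P2150831 was 0.63. The remaining probe, A_52_P402897, gave a smaller reporter difference of 0.7 (SE 0.45, limma adjusted p = 0.56). The Cdh4 probes did not share a direction in the step between E8.75 and E9.5. It was -1.33 (SE 0.55, limma adjusted p = 0.38) for A_52_P402897. A_52_P181943 gave -0.36 (SE 0.95) and A_55_P2150831 gave 0.25 (SE 0.44), with limma adjusted p = 0.89 and 0.83.

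Cdh13, T-cadherin, was dim on every array. The probe A_51_P114826 read -3.46 at E8.75, -2.22 and -4.13 in the rostral and caudal duct at E9.5, and -2.42 and -3.52 at E10.5, and was not well above background at E11.5 (-4.7) or in the Wt1-GFP cells (-4.93 and -4.51). The other probe, A_55_P2130114, is listed for another transcript and was well above background on 3 of 8 arrays. Both probes were measured in the rostral duct at both stages. For A_55_P2130114 the E9.5 duct differed from the Wt1-GFP cells by only 0.21 (SE 0.34, limma adjusted p = 0.82). Its step from E10.5 to E11.5 was -0.4 (SE 0.41). The E9.5 duct exceeded the Wt1-GFP cells by 1.55 (SE 0.65, at least 1.93-fold, limma adjusted p = 0.46) for A_51_P114826, and E11.5 lay at least 2.64-fold below E10.5 (log2 difference -1.73, SE 0.8, limma adjusted p = 0.47). With the normexp correction these differences were 0.21 and -0.62. Its interaction term of -1.92 (SE 0.64, limma adjusted p = 0.83) rests on pairs of 1.91 and 1.09 in the duct and -0.42 in the Wt1-GFP cells, the last between values not well above background, and was -1.18 with the floor.

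**Figure D3:**
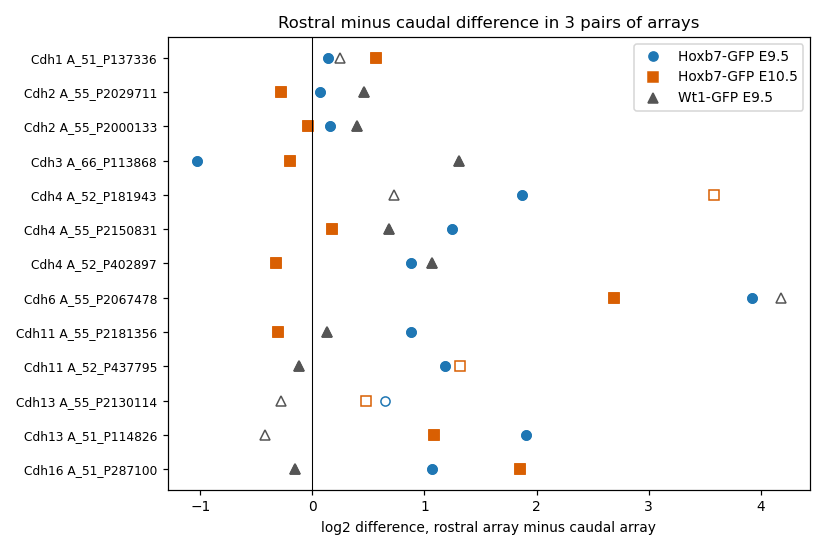
Level in the rostral array minus level in the caudal array (log2, x axis) for each cadherin probe (rows) in 3 pairs of samples, marked by shape and colour. Points right of the line are higher in the rostral part, and an open point had at least 1 of its 2 values not well above background, so that its distance from 0 is not measured. Among filled points Cdh6 lies farthest right, at 3.92 in the E9.5 duct and 2.69 in the E10.5 duct.

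Other members gave interaction terms of at least 1 in size. For Cdh3 the term was 1.93 (SE 0.65, limma adjusted p = 0.83), since rostral lay below caudal by 1.03 and 0.2 in the duct pairs (log2 differences -1.03 and -0.2) and above it by 1.31 in the Wt1-GFP pair. For Cdh16 it was -1.61 (SE 0.63, limma adjusted p = 0.87), with duct pairs of 1.07 and 1.85 and a Wt1-GFP pair of -0.15. Cdh4 A_52_P181943 gave -1.99 (SE 0.99) and Cdh11 A_52_P437795 gave -1.37 (SE 0.5), or -1.5 and -0.98 with the floor, with limma adjusted p = 0.91 and 0.85. None of the 13 probes had an unadjusted p under 0.05 for the interaction, against 6.11% of all probes, and with limma 0 passed the adjusted threshold.

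Over the 8 arrays, Cdh1 and Cdh16 varied together, and Cdh2 and Cdh11 varied together in the opposite direction. Levels of Cdh1 and Cdh16 correlated at r = 0.94, and those of Cdh2 and Cdh11 at 0.91, while Cdh2 and Cdh16 gave -0.95 and Cdh1 and Cdh11 -0.88. These values describe 8 arrays that share their stages and reporters and carry no test. They and the values below also use readings not well above background. Cdh1 was well above background on 5 of the 8 arrays, and the Cdh11 probe used here, A_52_P437795, on 7. Cdh6 followed none of Cdh1, Cdh2, Cdh11 and Cdh16 (r from 0.04 to 0.2) and came nearest to Cdh13 (0.67). Among 11110 genes with varying levels, those most like Cdh1 included Kcnj16, a potassium channel gene, and Dnah1, an axonemal dynein gene (r = 0.997 and 0.996). Those most like Cdh16 were Anks1b, Tmem102 and Cys1, a gene of the primary cilium (0.987 to 0.99). Nearest to Cdh2 were Emilin2, S100a10 and Cysltr1 (0.979 to 0.985), and nearest to Cdh11 were Nid1, a basement membrane gene, and the homeobox genes Hoxa2 and Msx2 (0.978 to 0.988). Tnks1bp1 and 1110008P14Rik were among the nearest to Cdh6 (0.943 and 0.942), and Gpat2, Zfp612 and Lrrk1 to Cdh3 (0.961 to 0.97).

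Partners of the cadherins at the junction lay on both sides of 0 in the reporter comparison. Of 15 measured catenins and junction linkers, 0 passed the adjusted threshold in the reporter comparison, and their median log2 difference was -0.01, against -0.04 over all tested probes, and 0.17 with quantile normalization. There were 7 higher and 8 lower in the duct, 3 and 2 of them at an unadjusted p under 0.05, against 6.1% and 5.63% of all probes. The brightest were Ctnnb1 (beta-catenin), which binds the cadherin tail, at 6.65 to 7.09 on the 8 arrays, and Ctnna1 (alpha-catenin), which links it to actin, at 5.27 to 6.03. Their full ranges were below 1 while Cdh1 ranged over at least 4.17. Nectin2 and Nectin3, members of the other adhesion family of these junctions, lay at 2.73 to 3.35 and 2.38 to 3.81. Of the 8 desmosome genes 0 passed the adjusted threshold, with a median reporter difference of 0.22 (-0.08 with the normexp correction), and the brightest, Pkp3 and Dsp, lay at 8.31 to 8.54 and 0.44 to 1.9.

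Of the other 12 measured Cdh genes, 0 passed in any comparison. The brightest, Cdh8 and Cdh17, spanned -0.12 to 0.34 and -1.09 to 0.12. Cdh5 (VE-cadherin), the endothelial cadherin, was picked after its values were seen: it read 2.61 at E8.75, -3.27 to -1.23 on the other 5 duct arrays and was not well above background in the Wt1-GFP cells, at -6.08 and -6.15. It exceeded the Wt1-GFP cells at E9.5 at least 5.56-fold (limma adjusted p = 0.22). Cdh5 shared its highest array, E8.75, with the other endothelial markers.

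Transcription factors known to repress Cdh1 were higher in the Wt1-GFP cells. All 7 listed repressors were lower in the E9.5 duct, with a median difference of -2.7 (-1.77 with the normexp correction and -0.93 with a block for slide row), and 6 of 7 had an unadjusted p under 0.05, against 5.63% of all probes lower at that p, although 0 passed after adjustment. The brightest were Tcf3 (E2A), at 1.36 to 1.91 on the duct arrays and 2.26 and 2.4 in the Wt1-GFP cells, and Zeb1. Zeb1 read 3.43 at E8.75, 2.38 and 0.3 in the rostral and caudal duct at E9.5, -2.04 and -2.08 at E10.5, -1.78 at E11.5, and 3.16 and 3.27 in the Wt1-GFP cells. Its reporter difference was -1.87 (SE 0.67, limma adjusted p = 0.43) and its step from E9.5 to E10.5 was -3.4 (SE 0.67, limma adjusted p = 0.6). The order of Zeb1 over the duct stages was thus high at E8.75 and low from E10.5, as for Cdh2.

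Snai2 (Slug), named after its values were seen, read 3.56 and 2.83 in the rostral and caudal Wt1-GFP cells and between -4.68 and -0.23 on the 6 duct arrays. It was lower in the E9.5 duct by 3.93 (log2 difference -3.93, SE 0.4, limma adjusted p = 0.22). At E8.75 it read -2.45, below both E9.5 duct samples (-0.23 and -1.23), so the repressors did not share 1 order over the stages. From E9.5 to E10.5, 5 of 7 repressors were lower and 2 were higher. At an unadjusted p under 0.05, 4 were lower and 0 higher, against 3.48% and 3.85% of all probes. The median over the list was -1.96, against 0.01 over all tested probes.

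Genes known to promote an epithelial state were divided in the reporter comparison. Of 8 activators, 5 were higher and 3 lower in the E9.5 duct than in the Wt1-GFP cells, with a median of 0.26 (0.01 with the normexp correction). At an unadjusted p under 0.05, 3 were higher and 1 lower, against 6.1% and 5.63% of all probes, and 0 passed after adjustment with limma. From E8.75 to E9.5, 6 of the 8 activators were higher and 2 lower (median 1.14, and 0.36 with the normexp correction). From E9.5 to E10.5, 7 were higher and 1 lower (median 0.7, and 0.52 with that correction). In these steps 2 and 1 were higher at an unadjusted p under 0.05, against 7.36% and 3.85% of all probes. The brightest, Ovol2, was flat at 7 to 7.51. Grhl2, an activator of Cdh1 transcription, read 0.92 at E8.75, 2.08 and 4 in the rostral and caudal duct at E9.5, 3.58 and 3.93 at E10.5, 4.71 at E11.5, and -4.44 (not well above background) and -2.66 in the Wt1-GFP cells. All 6 duct arrays lay above both Wt1-GFP arrays in Grhl2, as for 5.81% of all tested probes. The difference at E9.5 was 6.59 (SE 0.5, limma adjusted p = 0.21).

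Esrp1, an epithelial splicing factor, was named after its values were seen. It read -2.76 at E8.75, where Cdh1 was also low, 2.54 and 4.08 in the rostral and caudal duct at E9.5, 3.93 and 4.09 at E10.5, 3.92 at E11.5, and -2.59 and -2.54 in the Wt1-GFP cells. The 5 duct arrays from E9.5 on thus lay above the other 3. The share of all probes with this order was not counted. At E9.5 the duct exceeded the Wt1-GFP cells by 5.87 (SE 0.49, limma adjusted p = 0.21).

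**Figure D4:**
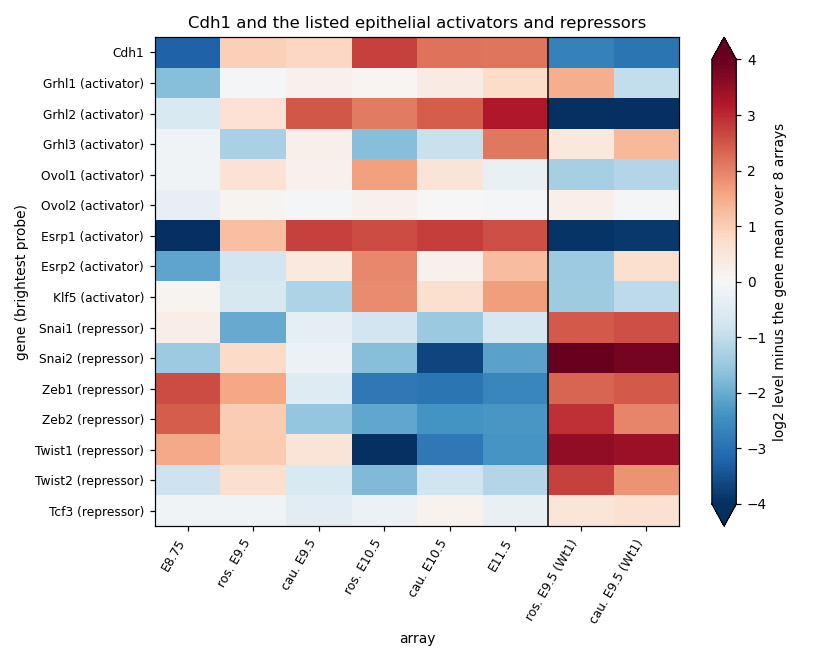
Level of Cdh1, of 8 epithelial activators and of 7 repressors of E-cadherin (rows, brightest probe of each gene) on the 8 arrays (columns), as the log2 level minus the gene's mean over the arrays. Colours stop at 4 in size, and the black line divides the 6 Hoxb7-GFP arrays from the 2 Wt1-GFP arrays. Grhl2 and Esrp1 are blue in the Wt1-GFP columns together with Cdh1, where the 7 repressors are red, and Ovol2 is pale throughout.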

How the data were processed

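Mouse cells (ICR) were measured on 8 Agilent arrays, in 5 groups. Per the file headers, the deposited intensity is a processed signal, corrected for background by Agilent's Feature Extraction software (version 10.7.3.1), with probes placed on mm9. The authors' deposited matrix holds log2 values centred per probe, matched here to the scanner levels at r = 0.9998 (column medians -0.07 to 0.08), and its scale is not stated. Its direction followed the scanner values. It served as an alternative.

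Outlier spots were left out and spots of a probe averaged. Levels (log2 signal minus the array's 75th percentile) were fitted per probe with limma (version 3.58.1; R 4.3.3; data.table, version 1.17.8) over 45582 probes well above background on at least 1 array: 5 group terms and a position term (0.5 rostral, -0.5 caudal, 0 undivided), which left 2 residual degrees of freedom (1 for the interaction), with Benjamini-Hochberg adjustment, two-sided. A stage of 1 array borrows its spread from the other groups. The number of arrays limits precision. The fit was tested on simulated data. The members, lists and alternatives were chosen with earlier results of these data known. All 8 genes were named with every probe, and from each list genes past the threshold or, with none, the 2 brightest. The 3 genes most like a member were taken by Pearson's r. Genes picked later are marked. A few genes that these rules would name or list are not reported here.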

Additional observations from a re-analysis of the deposited data

How the results depend on the processing

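Without a position term, 3 probes passed in the reporter comparison. The normexp correction gave 227 there and 114 from E8.75 to E9.5, and a prior variance that follows intensity gave 789, 23 and, for the interaction, 1. All other planned settings left 0 in each comparison, as did leaving out each array in turn. With the intensity-following prior, fits without each array in turn, chosen after seeing the data, gave 8 to 735 probes, fewest without an E10.5 array (12 without the rostral, 8 without the caudal), 80 without the caudal E9.5 duct, 245 and 581 without the caudal and rostral Wt1-GFP arrays, 629 without the rostral E9.5 duct, 721 without E8.75 and 735 without E11.5. Cdh1 kept adjusted p 0.026 to 0.036 in 2 of these 8 fits (without E8.75 or E11.5) and Cdh16 0.019 to 0.048 in 2 (without E8.75 or the caudal Wt1-GFP array). With the normexp correction 7 cadherin probes ranged over at least 4-fold, and the share of all tested probes was not counted under it.

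Of 773 values of 41 cadherin results under alternatives, 751 kept their direction and side of the threshold. Those that turned: with the slide row as a block, Cdh4 A_52_P181943 gave -0.47 (reporter) and 0.08 (E10.5 minus E9.5), and Cdh2 A_55_P2029711 gave 0.02 (reporter) and -0.09 (E11.5 minus E10.5). The Cdh6 interaction gave -0.45 with the normexp correction. Leaving out each array in turn, Cdh3 ranged from -0.21 to 1.72 (reporter; -0.04 without the caudal E9.5 duct and -0.21 without the caudal Wt1-GFP array), from -0.52 to 1.07 (E10.5 minus E9.5, lowest without the rostral E9.5 duct) and from -0.07 to 1.52 (E9.5 minus E8.75, lowest without the caudal E9.5 duct). For E11.5 minus E10.5, Cdh2 A_55_P2029711 ranged from -0.09 (without the rostral E10.5 duct) to 0.46 and Cdh16 from -0.18 (without the caudal one) to 1.2. For E10.5 minus E9.5, Cdh4 A_52_P181943 ranged from -2.2 to 0.08 (without the caudal E10.5 duct). The cause was not tested. Fewer arrays enter the fits that leave one out. No paired analysis was possible because the labels give no replicate numbers shared across groups, apart from the rostral and caudal arrays of 3 groups, which the position term compares within their group. Dim probes limit the folds of Cdh1, Cdh4 (A_52_P181943), Cdh6, Cdh11 (A_52_P437795) and Cdh13, whose lowest values are bounds. The Wt1-GFP values of Cdh16 were measured but dim, which limits the precision of its folds from them. A floor for the ranges was added after seeing the data.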
